A study of Mus musculus with 9 samples.

Results

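The LILRB4 pathway was followed through 8 mouse genes. These were the receptor genes Lilrb4a and Lilr4b, the phosphatase genes Ptpn6, Ptpn11 and Inpp5d, and the ligand genes Apoe, Fn1 and Scg2. They were picked by symbol and not by a threshold on measured values, with earlier results of these data known, and each matched 1 row among the 54532 genes of the deposited FPKM table (fragments scaled by exon length and library size). The deposited count table, on which the tests were run, holds 9877 genes, among them 7 of the 8. Scg2 is the one outside it.

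Poly-A RNA was sequenced from sorted M-MDSCs (monocytic myeloid-derived suppressor cells, which resemble monocytes and hold T cells in check). The tumours were grown from MC38 cells, a colon carcinoma line of the mouse. There were 3 libraries from LILRB4+/+ SCG2-/- mice (SCG2 knockout libraries), 3 from LILRB4+/+ mice without that deletion (LILRB4 libraries) and 3 from WT mice, and all mice bore MC38 tumours. The labels give no age, strain or sorting gate, and do not state the species, promoter or copy number behind LILRB4+/+, whether SCG2 is missing from every cell, or whether animals were pooled. All rows of both tables are mouse genes, so RNA of a human LILRB4 gene, if the mice carry one, was not analysed here. Nothing says that the libraries of a group came from separate mice, so the p-values reflect the spread between libraries, which can be technical.

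Deposited counts summed to 14501163 to 27219202 per library. The 10 monocyte markers were all detected in all 9 libraries, with summed levels of 1207 to 2689 FPKM in SCG2 knockout, 2274 to 3461 FPKM in LILRB4 and 1234 to 3251 FPKM in WT libraries. The 15 T and NK cell markers were all detected as well, although T and NK cells are not M-MDSCs. They summed to 400.3, 651 and 601 FPKM in SCG2 knockout replicates 1 to 3, to 610.3, 99.9 and 539 FPKM in LILRB4 replicates 1 to 3, and to 352, 103 and 135 FPKM in WT replicates 1 to 3. LILRB4 replicate 2 and WT replicates 2 and 3 were the libraries low in these markers. Across libraries of RNA from many cells, fewer cells of a type and less RNA per cell cannot be told apart.

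LILRB4 is an inhibitory immunoglobulin-like receptor of myeloid cells. When a ligand engages it, Src family kinases phosphorylate tyrosines in the immunoreceptor tyrosine-based inhibitory motifs (ITIMs) of its tail, and these recruit phosphatases with SH2 domains. SHP-1 (Ptpn6) and SHP-2 (Ptpn11) remove phosphate from proteins, and SHIP1 (Inpp5d) removes it from the membrane lipid made by PI3 kinase. Apolipoprotein E (Apoe) and fibronectin (Fn1) are reported ligands, and the series title names SCG2 (secretogranin II), a granin of secretory granules, as another. Mice have a pair of neighbouring genes related to human LILRB4, of which Lilrb4a encodes the receptor with ITIMs and Lilr4b a close relative without them.

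The ends of the coding sequences show how the receptor genes differ. They are printed because reads can be told apart only where the genes differ, and because the ITIMs link the receptor to the phosphatases. Both stretches are spliced, run to the stop codon, and were read from the GRCm38 annotation (plus strand, Lilrb4a within chr10:51494828-51496244 and Lilr4b within chr10:51484552-51485760). Capitals mark the codons of the ITIM pattern, searched as isoleucine, leucine, valine or serine, any residue, tyrosine, any 2 residues, then isoleucine, leucine or valine.
Lilrb4a: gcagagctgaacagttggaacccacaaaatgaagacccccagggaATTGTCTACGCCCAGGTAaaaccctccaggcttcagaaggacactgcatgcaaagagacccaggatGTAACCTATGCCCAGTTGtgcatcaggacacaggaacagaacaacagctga
Lilr4b: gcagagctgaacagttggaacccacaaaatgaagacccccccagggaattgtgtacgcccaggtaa
The Lilrb4a tail held the pattern 2 times, from codons 298 and 320 of 335. The Lilr4b tail held it 0 times and its coding sequence ended after 303 codons. The first 40 bases of the stretches were identical. A run of c then had 7 bases in Lilr4b, against 5 in Lilrb4a, so that the 2 extra bases shift the reading frame. Of the 24 bases of Lilr4b that follow the run, 23 matched those of Lilrb4a, but they are read in another frame and end in a stop. Over the whole coding sequences 874 of 910 aligned bases were identical (96.0%).

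This likeness limits how well counts can be assigned between the receptor genes. Lilrb4a (ENSMUSG00000112148, chromosome 10, 51490956 to 51496611) lies downstream of Lilr4b (ENSMUSG00000112023, chromosome 10, 51480632 to 51486703) on the same strand. Another annotated gene on that strand, Gm49339, has exons that cover 96.1% of Lilrb4a's coding bases and 35.3% of its exon bases. It had only 1 to 14 counts per library, and how reads lying on both genes were counted is not given in the sources used here. Every 100-base stretch of the main Lilrb4a transcript also occurs in another annotated gene, against 11.9% of those of Lilr4b and 0% of those of the other 6 genes. These shares count any other gene, Gm49339 included, so they do not show how much of Lilrb4a is shared with Lilr4b. The FPKM of both receptor genes also rests on exon lengths of 5227 and 5439 bases, 3.78 and 2.96 times those of their main transcripts, so their levels relative to other genes depend on the length used.

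Both receptor genes were abundant in all libraries. Lilr4b stood above 98.3% of protein-coding genes by FPKM in its lowest library and Lilrb4a above 94.9%. Lilrb4a had 131, 146 and 157 FPKM in SCG2 knockout replicates 1 to 3, 274, 154 and 159.7 FPKM in LILRB4 replicates 1 to 3, and 138, 47.7 and 74.0 FPKM in WT replicates 1 to 3. Lilr4b had 345, 346 and 359 FPKM in SCG2 knockout, 640.2, 327 and 450.0 FPKM in LILRB4, and 289, 137 and 149 FPKM in WT replicates 1 to 3. LILRB4 replicate 1 was the highest library for both genes, WT replicate 1 lay closest to the other genotypes, and no LILRB4 library overlapped a WT library. SCG2 knockout libraries were the least spread, and those of Lilr4b also lay above all WT libraries.

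**Figure D1:**
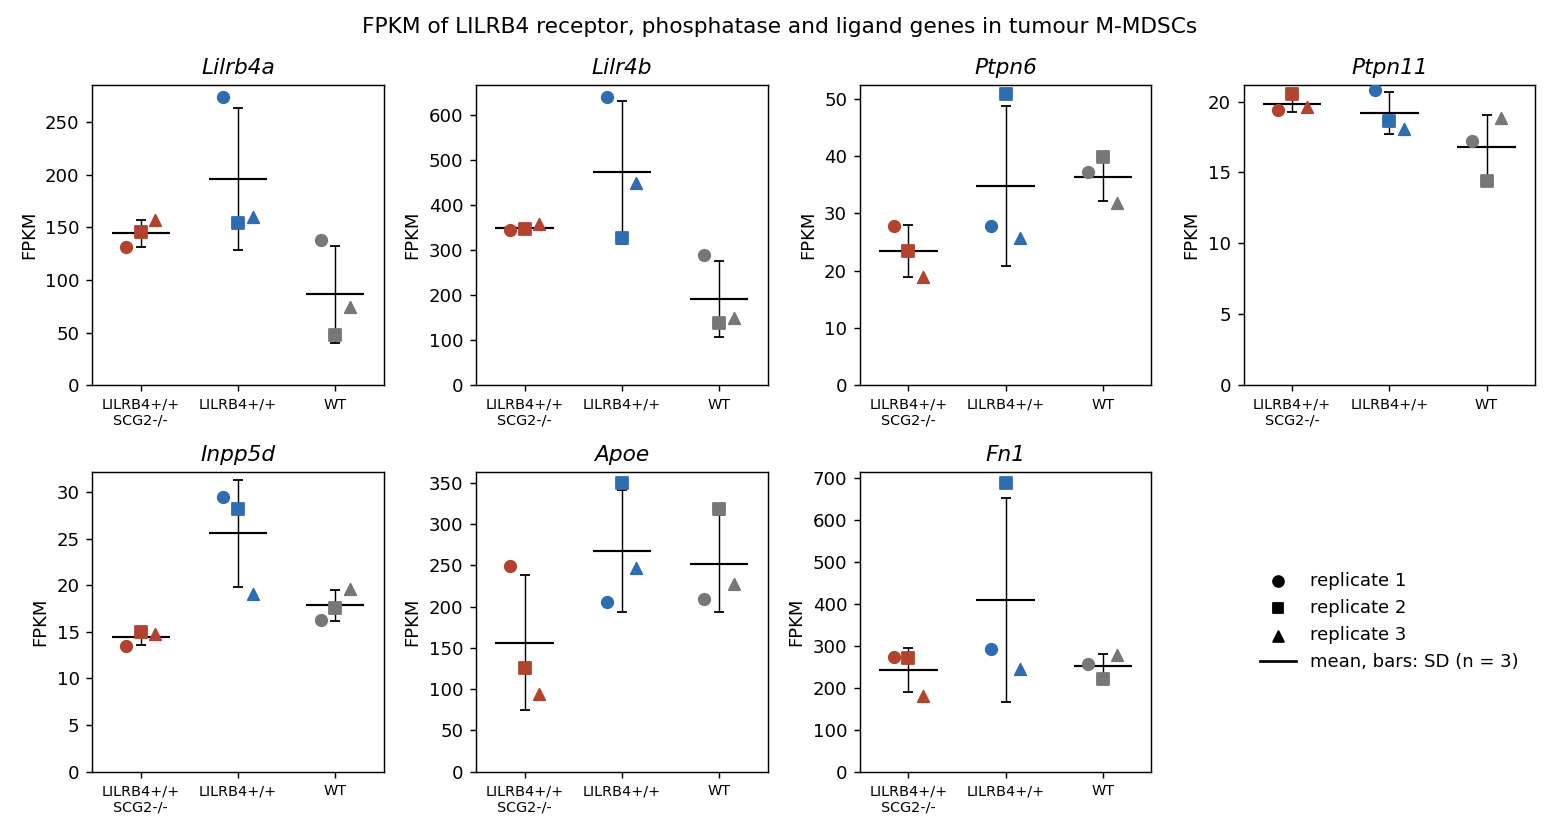
FPKM of the 7 detected genes in each library (y axis, linear from 0), with SCG2 knockout (LILRB4+/+ SCG2-/-), LILRB4 (LILRB4+/+) and WT libraries from left to right. Points are libraries, shaped by replicate number, and lines and bars are means and SD of 3 libraries. Both receptor genes are lowest in WT replicates 2 and 3, Inpp5d is lower in all SCG2 knockout libraries than in any other library, and LILRB4 replicate 2 is the highest library for Ptpn6, Apoe and Fn1.

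The comparison of LILRB4 with WT asks what the LILRB4 genotype changes. Lilrb4a averaged 196 ± 67.7 FPKM in LILRB4 and 86.5 ± 46.3 FPKM in WT libraries (SD, n = 3 each), with an edgeR log2 fold change of 1.14 and SE 0.37 (edgeR adjusted p = 0.115). Lilr4b averaged 472 ± 158 FPKM in LILRB4 and 192 ± 84.0 FPKM in WT libraries, with an edgeR log2 fold change of 1.26 and SE 0.33 (edgeR adjusted p = 0.0652). Neither passed the threshold of 0.05 on p-values adjusted by Benjamini-Hochberg over the 9877 genes, and with both genes summed as 1 the edgeR adjusted p was 0.0741. In all 0 of the 7 tested genes passed, where 2.25% of all genes did. At an unadjusted edgeR p under 0.05 there were 3 of the 7 (both receptor genes and Inpp5d), where 22.6% of all genes were at that level. The receptor genes were 2 of the 7 with no overlap between LILRB4 and WT libraries, where 26.5% of all genes had none.

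These values depended on the test and on single libraries. With DESeq2 both receptor genes passed (DESeq2 adjusted p = 0.0133 for Lilrb4a and 0.00112 for Lilr4b), and DESeq2 called 924 genes against 222 with edgeR. Lilr4b also passed without LILRB4 replicate 2 (edgeR adjusted p = 0.0312) and without WT replicate 1 (edgeR adjusted p = 0.0496). Over all alternatives its adjusted p ran from 0.00112 to 0.239, and that of Lilrb4a from 0.0133 to 0.388. Without WT replicate 1 the log2 fold changes were 1.68 for Lilrb4a and 1.71 for Lilr4b, and without LILRB4 replicate 1 they were 0.84 and 1.005. The 222 genes were 171 higher and 51 lower, and the split moved to 136 and 128 with upper quartile scaling and to 137 and 321 with library totals, which shifted the median log2 fold change of all genes to -0.11 and -0.15, against -0.02 with the TMM scaling. Relative to those medians both receptor genes were higher under each scaling.

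The effect of losing SCG2 in LILRB4+/+ mice is read from SCG2 knockout against LILRB4, a comparison that uses the same LILRB4 libraries. Lilrb4a averaged 144 ± 12.8 FPKM in SCG2 knockout and 196 ± 67.7 FPKM in LILRB4 libraries, and Lilr4b 350.0 ± 7.71 and 472 ± 158 FPKM (SD, n = 3 each). Their log2 fold changes were both -0.38 (SE 0.36 and 0.32, edgeR adjusted p = 0.752 and 0.711). For both genes the SCG2 knockout values lay below LILRB4 replicate 1 and overlapped the other LILRB4 values. Without LILRB4 replicate 1 the log2 fold changes were -0.09 for Lilrb4a and -0.13 for Lilr4b.

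SCG2 knockout libraries were also set against WT, with the same WT libraries as before. Lilr4b had 345 to 359 FPKM in SCG2 knockout and 137 to 289 FPKM in WT libraries, which did not overlap (log2 fold change 0.89, SE 0.32, edgeR adjusted p = 0.317). Lilrb4a stood at 0.76 (SE 0.37, edgeR adjusted p = 0.358), and its lowest SCG2 knockout library, at 131 FPKM, lay below WT replicate 1, at 138 FPKM. Without WT replicate 1 Lilrb4a stood at 1.30 and Lilr4b at 1.33, and without WT replicate 2 they stood at 0.45 and 0.68. With the mean of both LILRB4+/+ genotypes set against WT, Lilrb4a stood at 0.95 (SE 0.33, edgeR adjusted p = 0.154) and Lilr4b at 1.08 (SE 0.29, edgeR adjusted p = 0.102). In that comparison 0 of the 7 genes passed, where 0.0405% of all genes did. At an unadjusted edgeR p under 0.05 there were 2 (the receptor genes), where 21.7% of all genes were, and 1 of the 7, Lilr4b, had no overlap with WT, where 9.36% of all genes had none. DESeq2 gave both receptor genes a pass there (DESeq2 adjusted p = 0.0256 and 0.00259), as did edgeR without LILRB4 replicate 2 for Lilr4b (edgeR adjusted p = 0.0346), and over all alternatives the adjusted p ran from 0.0256 to 0.420 for Lilrb4a and from 0.00259 to 0.349 for Lilr4b.

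**Figure D2:**
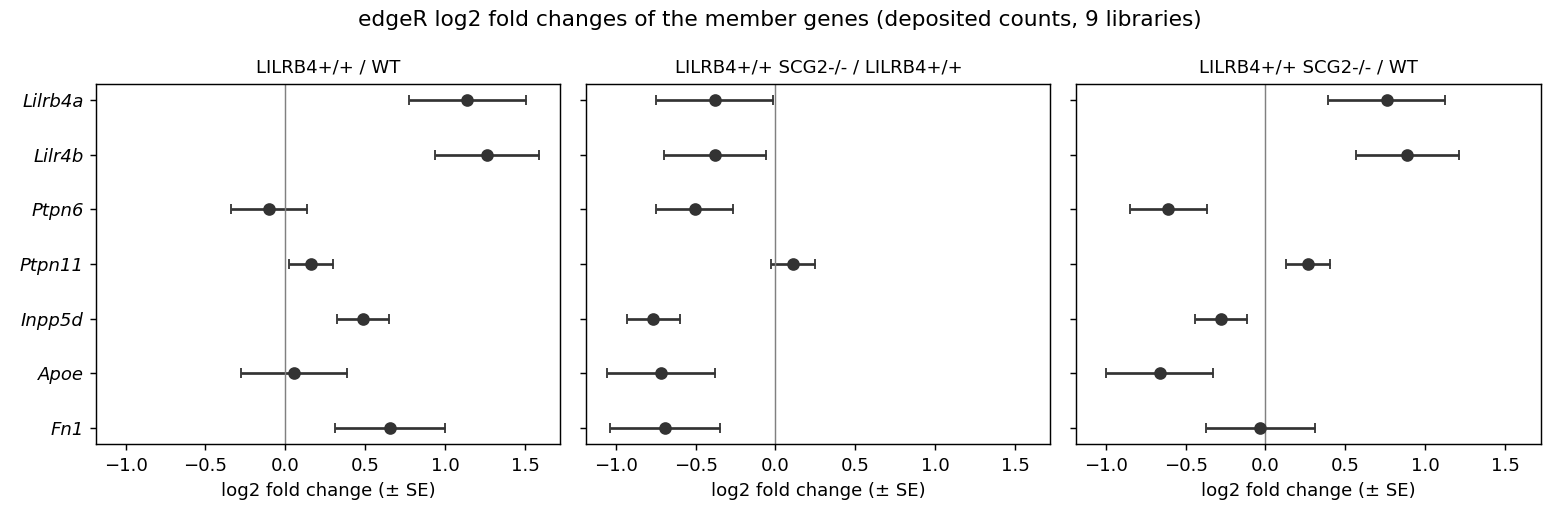
Log2 fold changes (x axis) of the 7 tested genes with bars of 1 SE, from edgeR on deposited counts, for LILRB4 over WT, SCG2 knockout over LILRB4, and SCG2 knockout over WT. The receptor genes lie furthest above 0 over WT in the left panel, at 1.14 and 1.26, and Inpp5d lies furthest below 0 in the middle panel, at -0.76. None of the points passed the adjusted threshold.

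The receptor genes moved together from library to library. The ratio of Lilrb4a to Lilr4b in FPKM averaged 0.412 ± 0.0291 in SCG2 knockout, 0.418 ± 0.0587 in LILRB4 and 0.440 ± 0.0806 in WT libraries (SD, n = 3 each). The log2 ratio differed by at most 0.08 between groups, with exact permutation p of 0.7 to 0.9 between single groups, where 0.1 is the smallest p that 3 against 3 allows. Over the 9 libraries the log2 CPM of the genes (counts scaled to library size) had a Pearson r of 0.97, and 0.92 after subtraction of the group means, as a description of libraries that share genotype and depth. The mean ratio was 0.423 (SD 0.0535, n = 9) with the deposited lengths, 0.541 with main transcript lengths, and 0.640 with exon bases shared with no other gene. Lilr4b stood above Lilrb4a with each of these lengths. How reads lying on both Lilrb4a and Gm49339 were counted is not given, so these lengths do not settle the order of the receptor genes. If such reads were left out, Lilrb4a counts would come mainly from exon bases outside its coding sequence. The main transcript length would then not apply, and the level of Lilrb4a might not measure the transcript that encodes the ITIMs. Counts may also be split unevenly between such close copies.

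The spread between libraries of 1 group was wide for the receptor genes. Their within-group SD of log2 CPM was 0.54 for Lilrb4a and 0.46 for Lilr4b, above those of 94.3% and 91.3% of genes, where the median gene had 0.23. Receptor levels were low in WT replicates 2 and 3, which were also low in summed T and NK cell markers. LILRB4 replicate 2 was low in those markers as well. It had 154 FPKM of Lilrb4a and 327 FPKM of Lilr4b, the lowest of the LILRB4 libraries but above all WT libraries. Dendritic cell markers (8 of 8 detected) summed to 97.4, 160.5 and 97.2 FPKM in SCG2 knockout replicates 1 to 3. They summed to 153, 33.4 and 142 FPKM in LILRB4 and to 85.4, 50.9 and 53.6 FPKM in WT replicates 1 to 3. Mast cells also express these receptors, and 0 to 3 of their 8 markers were undetected in a library. These markers summed to 5.84, 11.2 and 11.2 FPKM in SCG2 knockout replicates 1 to 3. They summed to 8.55, 3.01 and 4.56 FPKM in LILRB4 and to 7.82, 1.66 and 3.50 FPKM in WT replicates 1 to 3, highest in replicate 1 and lowest in replicate 2, as was Lilr4b in both groups. Neutrophil markers (11, with Ly6g at 0 in 7 of the 9 libraries) summed to 39.4 to 54.5 FPKM in SCG2 knockout, 87.8 to 235 FPKM in LILRB4 and 43.6 to 80.9 FPKM in WT libraries, higher in all LILRB4 libraries than elsewhere. The part of these cells in the receptor levels was not tested.

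**Figure D3:**
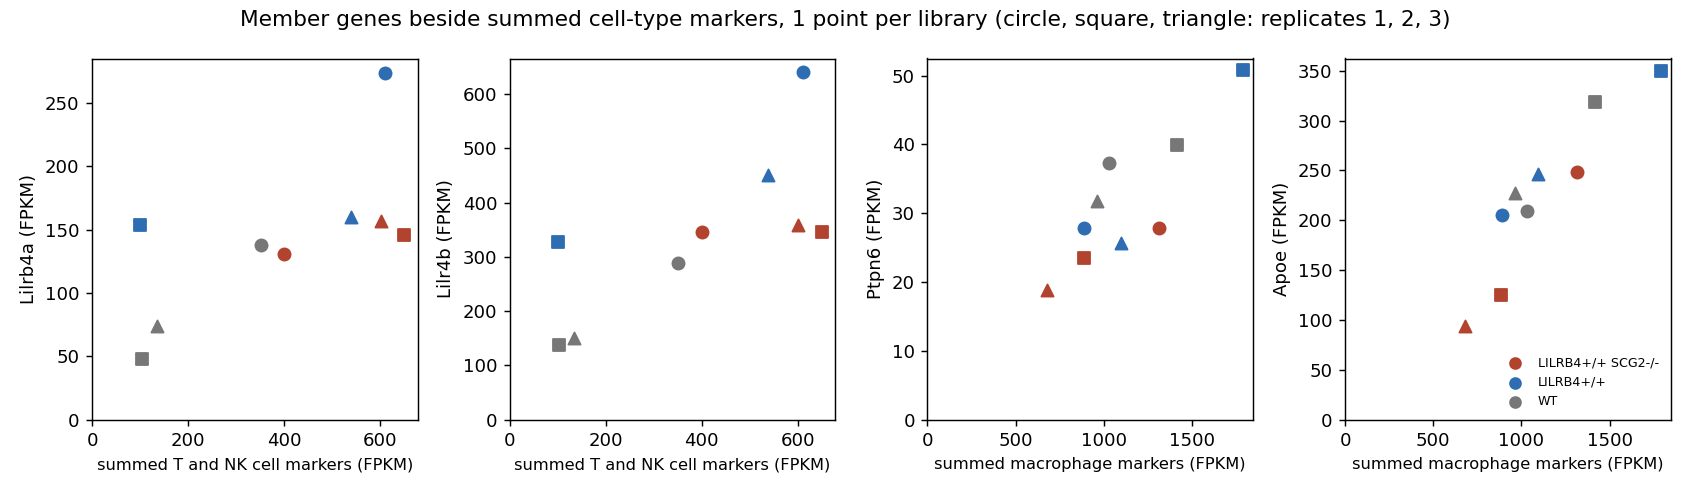
Receptor genes (y axes, FPKM) against the sum of 15 T and NK cell markers, and Ptpn6 and Apoe against the sum of 10 macrophage markers (x axes, FPKM), 1 point per library, in colour by genotype and in shape by replicate number. WT replicates 2 and 3 are low on both axes of the receptor panels. LILRB4 replicate 2 is low on the x axis, and on the y axes it is the lowest LILRB4 library but above all WT libraries. LILRB4 replicate 2 and WT replicate 2 are the highest libraries for Ptpn6, Apoe and macrophage markers.

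Inpp5d (ENSMUSG00000026288, chromosome 1, 87620312 to 87720507), which encodes SHIP1, was at its lowest in the 3 SCG2 knockout libraries. It had 13.5, 15.01 and 14.7 FPKM in SCG2 knockout replicates 1 to 3, against 29.5, 28.2 and 19.0 FPKM in LILRB4 replicates 1 to 3 and 16.3, 17.6 and 19.6 FPKM in WT replicates 1 to 3. The SCG2 knockout values lay below all others, and LILRB4 replicate 3 lay within the WT range. Group means were 14.4 ± 0.824 FPKM in SCG2 knockout, 25.6 ± 5.71 FPKM in LILRB4 and 17.8 ± 1.65 FPKM in WT libraries (SD, n = 3 each). The log2 fold change of SCG2 knockout over LILRB4 was -0.76 (SE 0.16), with an unadjusted edgeR p of 0.000713 and an edgeR adjusted p of 0.235.

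No gene passed in SCG2 knockout against LILRB4, so 0 of the 7 genes passed, where the share of all genes was 0.0%. At an unadjusted p under 0.05 edgeR gave 482 genes higher and 610 lower (11.1% of all), with Inpp5d the 1 among the 7, and DESeq2 called 13 higher and 162 lower. Inpp5d was 1 of those DESeq2 called (DESeq2 adjusted p = 0.00432), and over all alternatives its adjusted p ran from 0.00432 to 0.748. Leaving out single libraries gave log2 fold changes from -0.96 without LILRB4 replicate 3 to -0.69 without LILRB4 replicate 1. It was the 1 gene of the 7 whose SCG2 knockout and LILRB4 libraries did not overlap, where 18.6% of all genes had no overlap. Over WT, Inpp5d stood at 0.49 in LILRB4 (SE 0.16, edgeR adjusted p = 0.121) and at -0.28 in SCG2 knockout libraries (SE 0.16, edgeR adjusted p = 0.420).

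Ptpn6 (ENSMUSG00000004266, chromosome 6, 124720707 to 124738714), the SHP-1 gene, varied with single libraries. It had 27.9, 23.5 and 18.9 FPKM in SCG2 knockout replicates 1 to 3, 27.8, 50.9 and 25.6 FPKM in LILRB4 replicates 1 to 3, and 37.3, 39.9 and 31.8 FPKM in WT replicates 1 to 3. All SCG2 knockout values lay below all WT values, and LILRB4 replicate 2 stood far above the other LILRB4 libraries. The log2 fold change was -0.61 in SCG2 knockout over WT (SE 0.24, edgeR adjusted p = 0.330), -0.51 in SCG2 knockout over LILRB4 (SE 0.24, edgeR adjusted p = 0.464) and -0.10 in LILRB4 over WT (SE 0.24, edgeR adjusted p = 0.828). The last turned to 0.07 without LILRB4 replicate 1 and to 0.10 without LILRB4 replicate 3, and was -0.46 without LILRB4 replicate 2. Without that library SCG2 knockout over LILRB4 was -0.15.

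The 10 macrophage markers, all detected, shared their highest and lowest libraries with Ptpn6. They summed to 1314, 887 and 680.1 FPKM in SCG2 knockout replicates 1 to 3, to 890.2, 1790 and 1097 FPKM in LILRB4 replicates 1 to 3, and to 1030, 1417 and 964 FPKM in WT replicates 1 to 3. LILRB4 replicate 2 was the highest library and SCG2 knockout replicate 3 the lowest for both the marker sum and Ptpn6. The same 2 libraries were the highest and lowest for summed monocyte markers (3461 and 1207 FPKM) and neutrophil markers (235 and 39.4 FPKM). The match was thus not particular to macrophage markers. The part of any of these cells in the Ptpn6 values was not tested.

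Ptpn11 (ENSMUSG00000043733, chromosome 5, 121130533 to 121191397), the SHP-2 gene, was the steadiest of the 7. It had 19.4, 20.5 and 19.6 FPKM in SCG2 knockout replicates 1 to 3, 20.8, 18.6 and 18.1 FPKM in LILRB4 replicates 1 to 3, and 17.2, 14.4 and 18.8 FPKM in WT replicates 1 to 3. Only the SCG2 knockout libraries lay wholly above WT, and by less than 1 FPKM at the nearest pair. Its within-group SD of log2 CPM, 0.14, was above that of 13.1% of genes. Log2 fold changes were 0.16 in LILRB4 over WT, 0.11 in SCG2 knockout over LILRB4 and 0.27 in SCG2 knockout over WT (SE 0.14 each, edgeR adjusted p = 0.509, 0.827 and 0.378).

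The balance between the phosphatase genes was also compared. The FPKM ratio of Ptpn6 to Ptpn11 averaged 1.18 ± 0.242 in SCG2 knockout, 1.83 ± 0.787 in LILRB4 and 2.21 ± 0.546 in WT libraries (SD, n = 3 each). It did not overlap between SCG2 knockout and WT, where the exact two-sided permutation p was 0.1, the smallest possible with 3 against 3 (0.48 after Benjamini-Hochberg adjustment over the 12 ratio tests). The ratio of Inpp5d to Ptpn6 averaged 0.634 ± 0.150 in SCG2 knockout, 0.785 ± 0.256 in LILRB4 and 0.498 ± 0.102 in WT libraries, with overlap in each comparison. In SCG2 knockout against WT, 0 of the 7 genes passed, as did 0.0% of all genes, and 4 of the 7 had no overlap (Lilr4b and Ptpn11 higher, Ptpn6 and Inpp5d lower), where 23.4% of all genes had none. At an unadjusted p under 0.05 edgeR gave 837 genes higher and 603 lower in that comparison (14.6% of all), with 2 of the 7 (Lilr4b and Ptpn6) among them, and DESeq2 called 69 higher and 23 lower, none of them among the 7.

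**Figure D4:**
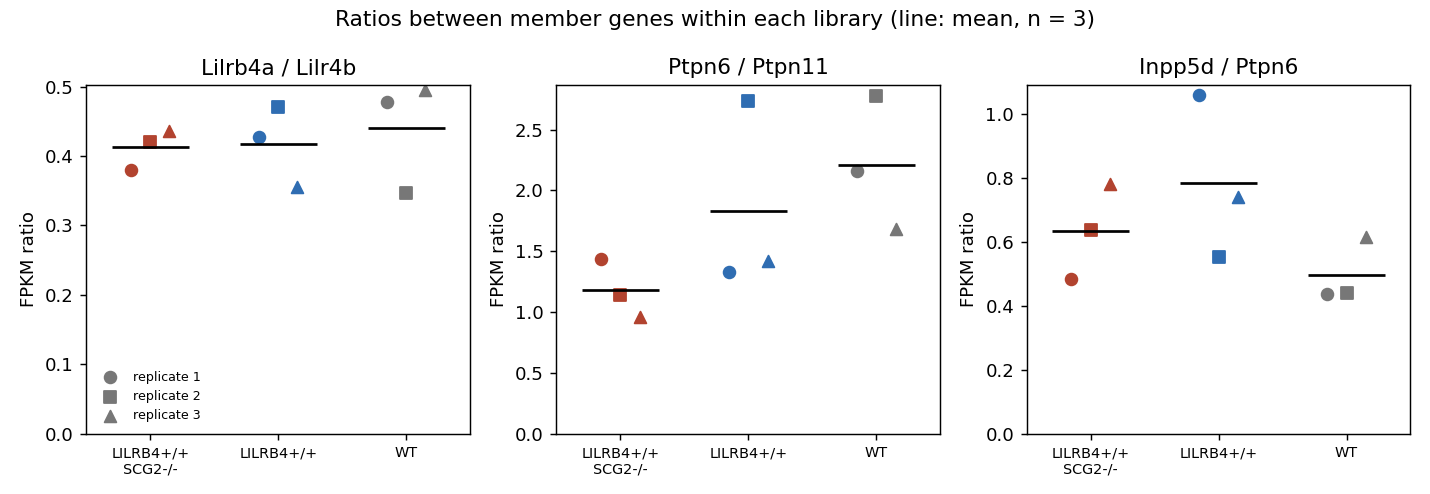
FPKM ratios (y axes, linear from 0) of Lilrb4a to Lilr4b, Ptpn6 to Ptpn11 and Inpp5d to Ptpn6 in each library, with SCG2 knockout, LILRB4 and WT libraries from left to right and a line at the mean of 3. The receptor ratio has nearly the same mean in the 3 genotypes, at 0.412, 0.418 and 0.440. The Ptpn6 to Ptpn11 ratio is lower in all SCG2 knockout libraries than in any WT library, with LILRB4 libraries spread over both.

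Of the ligand genes, Apoe (ENSMUSG00000002985, chromosome 7, 19696109 to 19699188) and Fn1 (ENSMUSG00000026193, chromosome 1, 71585520 to 71653200) were as abundant as the receptor genes. Apoe encodes a lipid-carrying protein made in quantity by macrophages. It had 249, 125 and 94.4 FPKM in SCG2 knockout replicates 1 to 3, 206, 349.6 and 246 FPKM in LILRB4 replicates 1 to 3, and 209, 319 and 227 FPKM in WT replicates 1 to 3. SCG2 knockout replicates 2 and 3 were the lowest of the 9 libraries and SCG2 knockout replicate 1 lay within the range of the other groups. Log2 fold changes were -0.72 in SCG2 knockout over LILRB4, -0.66 in SCG2 knockout over WT (SE 0.34 each) and 0.05 in LILRB4 over WT (SE 0.33), with edgeR adjusted p of 0.461, 0.372 and 0.936. Without SCG2 knockout replicate 1 the first was -1.25 and the second -1.17, and without SCG2 knockout replicate 3 they were -0.50 and -0.42. LILRB4 over WT turned to -0.03 with upper quartile scaling and -0.07 with library totals, and to -0.17, -0.05 and -0.02 without LILRB4 replicate 2, WT replicate 1 and WT replicate 3. As for Ptpn6, the macrophage markers given above were highest in LILRB4 replicate 2 and lowest in SCG2 knockout replicate 3, where Apoe was also highest and lowest. The same held for the monocyte and neutrophil markers, and the part of these cells was not tested.

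Fn1 encodes a matrix protein that fibroblasts and macrophages secrete. It had 274, 270.1 and 181 FPKM in SCG2 knockout replicates 1 to 3, 292, 688 and 246 FPKM in LILRB4 replicates 1 to 3, and 257, 220.1 and 278 FPKM in WT replicates 1 to 3. LILRB4 replicate 2 had more than any other library by a wide margin, and the remaining libraries overlapped. Log2 fold changes were 0.66 in LILRB4 over WT, -0.69 in SCG2 knockout over LILRB4 and -0.03 in SCG2 knockout over WT (SE 0.34 each, edgeR adjusted p = 0.277, 0.476 and 0.969). The last turned to 0.11 without SCG2 knockout replicate 3, 0.001 without WT replicate 1 and 0.03 without WT replicate 3. Without LILRB4 replicate 2 the first was 0.08 and the second -0.11. Summed fibroblast markers (9 of 9 detected) had their lowest value, 293 FPKM, in LILRB4 replicate 2. They ran from 361 to 483 FPKM in SCG2 knockout, 293 to 384 FPKM in LILRB4 and 344 to 459 FPKM in WT libraries. Summed macrophage markers had their highest value, 1790 FPKM, in LILRB4 replicate 2. Monocyte (3461 FPKM), neutrophil (235 FPKM) and carcinoma epithelial markers (44.6 FPKM) were also at their highest there. The 6 carcinoma epithelial markers summed to 19.3 to 34.4 FPKM in SCG2 knockout, 20.3 to 44.6 FPKM in LILRB4 and 22.0 to 28.3 FPKM in WT libraries. The part of these cells in the Fn1 values was not tested.

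Scg2 (ENSMUSG00000050711, chromosome 1, 79434669 to 79440120) was at or near a count of 0 in all libraries, which is not detectable with this depth. Counts recovered from FPKM were 0, 0 and 0 in SCG2 knockout, 1, 0 and 0 in LILRB4, and 1, 0 and 0 in WT replicates 1 to 3, 2 among 183933650 counts in all. With a count of 0, up to 3 counts remain possible, equal for Scg2 to 0.0451 to 0.0727 FPKM per library, a limit that covers counting error only. With groups at the floor the deletion labelled SCG2-/- could not be checked from Scg2 itself, and 7 of the 9 libraries had a count of 0 while the other two had 1 each.

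Across the 9 libraries the other genes varied with each other in a pattern that did not follow genotype alone. Pearson r of log2 CPM was 0.83 for Apoe with Ptpn6 and 0.66 for Fn1 with Ptpn6, and 0.73 and 0.87 after subtraction of group means. Lilrb4a and Ptpn11 had an r of 0.77, and 0.75 after that subtraction, while Ptpn6 and Ptpn11 had -0.68 and -0.45. These describe 9 libraries that share cell makeup, depth and genotype.

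**Figure D5:**
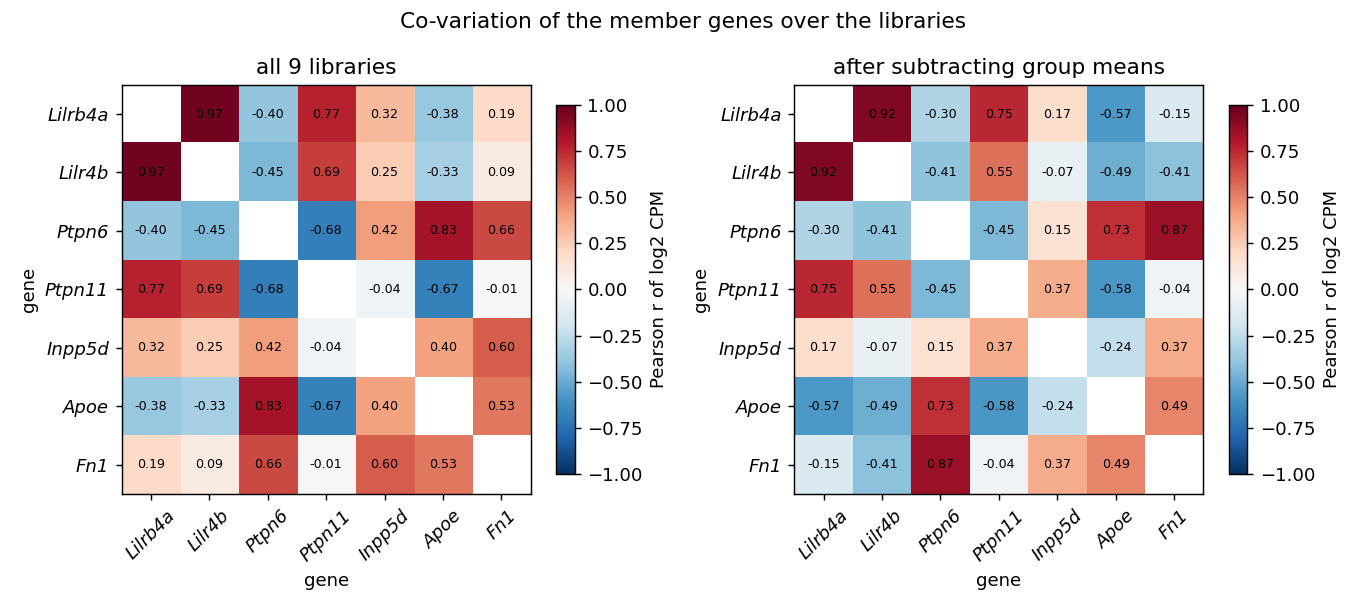
Pearson r of log2 CPM between each pair of the 7 tested genes over the 9 libraries (left) and after subtraction of each genotype's mean (right), in colour from -1 to 1 with the value in each cell. The receptor pair is the highest, at 0.97 and 0.92, and Ptpn6 pairs with Apoe and Fn1 in both panels.

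Among 9159 genes with a mean of 10 CPM or more, those most like each gene by this r were also listed. For Lilrb4a they were Rnf40, Chd7, Clk3, Paxbp1 and Arhgef1 (r of 0.97 to 0.99), and for Lilr4b Ewsr1, Zfp655, Psd4, Ikbke and Unc45a (0.98 in each case). For Ptpn6 they were Ube2e1, Dok3, Olfm1, Otulinl and Fgr (0.96 to 0.99), and for Ptpn11 Arfgap2, Dhx9, Celf1, Chd4 and Pcnt (0.97 to 0.99). For Inpp5d they were Havcr2, Cux1, Slfn8, Lyn and Crtc3 (0.94 to 0.97), of which Lyn differs between the deposited tables. For Apoe they were Lmo2, Cebpb, Alox5ap, Ssbp4 and Lgmn (0.97 to 0.99), and for Fn1 Wdfy4, Tlr4, Mertk, Thbd and Tmem164 (0.90 to 0.94).

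The rest of the pathway was read from lists of genes that act with these 8. Of 16 kinases, adaptors and phosphatases that act at ITIMs or are opposed by them, 1 passed in LILRB4 against WT, where 2.25% of all genes passed. The median log2 fold change of the 16 was 0.17, against -0.02 for all genes. It was Syk, a tyrosine kinase downstream of activating receptors that inhibitory receptors restrain. Syk rose to 72.0 ± 7.78 FPKM in LILRB4, against 40.03 ± 5.68 FPKM in WT libraries (SD, n = 3 each; log2 fold change 0.82, edgeR adjusted p = 0.0323), and stood at 40.6 ± 3.47 FPKM in SCG2 knockout libraries (log2 fold change over LILRB4 -0.77, edgeR adjusted p = 0.235). Lyn, a Src family kinase that phosphorylates ITIMs, stood at 0.91 with the deposited counts (edgeR adjusted p = 0.0861) but at 0.26 with counts recovered from FPKM (edgeR adjusted p = 0.644). Its FPKM averaged 62.9 ± 20.5 in LILRB4 and 52.1 ± 19.4 in WT libraries (SD, n = 3 each). In SCG2 knockout against LILRB4, 15 of the 16 had negative log2 fold changes with the deposited counts and 16 with recovered counts, with medians of -0.35 and -0.34, against 0.03 and 0.02 for all genes, and 0 passed with either.

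Downstream, LILRB4 has been tied in human leukaemia cells to NF-kB, the urokinase receptor and arginase. Of 11 genes on that list, with Il6 and Stat3 of the series title added, 4 passed upward in LILRB4 against WT, where 2.25% of all genes passed in either direction. The median log2 fold change of the 11 was 0.70, against -0.02 for all genes. They were Il6 (1.57, edgeR adjusted p = 0.0224), the adaptor gene Traf6 (0.70, edgeR adjusted p = 0.0371), and the NF-kB subunit genes Rel (0.91, edgeR adjusted p = 0.0423) and Nfkb1 (1.17, edgeR adjusted p = 0.0434). With counts recovered from FPKM 1 of the 11 passed, Il6, where 128 of 15743 genes passed upward and 9 downward. The deposited tables differ for Il6, Stat3 and Arg1. In SCG2 knockout against LILRB4 all 11 had negative log2 fold changes with the deposited counts and 10 with recovered counts, with medians of -0.22 and -0.25, against 0.03 and 0.02 for all genes, and 0 passed with either. Stat3 was the exception, at -0.16 with deposited and 0.22 with recovered counts. In SCG2 knockout against WT 9 of the 11 were positive with the deposited counts and 10 with recovered counts, with medians of 0.56 and 0.54, and 0 passed with either. Arg1 differed in sign there, at -0.31 with deposited and 0.06 with recovered counts.

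Markers of some other cell types also had positive medians in LILRB4 against WT. The median log2 fold change was 1.23 over 6 tested neutrophil markers (2 passed), 0.96 over 11 tested T and NK cell markers (0 passed) and 0.79 over 7 tested dendritic cell markers (1 passed). For 4 tested endothelial markers it was 0.80, and the 1 tested mast cell and 1 tested carcinoma epithelial marker stood at 1.27 and 0.25. Monocyte and macrophage markers (10 each) had medians of 0.12 and 0.07. Fibroblast markers went the other way, at -0.29 (7 of 7 negative), and 0 passed in these further lists. Over all genes 2.25% passed there. In SCG2 knockout against LILRB4 the median was -0.75 for 10 monocyte markers (9 negative), -0.31 for 10 macrophage markers (9 negative) and -1.09 for 6 neutrophil markers (6 negative). It was -0.34 for 4 endothelial markers (4 negative) and -0.19 for 7 dendritic cell markers (4 negative). It was 0.26 for 11 T and NK cell markers (2 negative) and 0.46 for 7 fibroblast markers (0 negative), and 0 passed. The part of these cells in the values of these lists was not tested.

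The paired receptor genes Pirb, with ITIMs of its own, and Pira2 stood at 0.39 and 0.26 in LILRB4 over WT (edgeR adjusted p = 0.226 and 0.610). In SCG2 knockout over LILRB4 they stood at -0.92 and -0.76 (edgeR adjusted p = 0.222 and 0.383). With counts recovered from FPKM, Pirb stood at 0.18 and -0.73 in these comparisons (edgeR adjusted p = 0.665 and 0.392). Pirb had 15.1 ± 2.37 FPKM in SCG2 knockout, 25.4 ± 7.61 FPKM in LILRB4 and 22.3 ± 2.33 FPKM in WT libraries. The further reported LILRB4 ligands Alcam, an adhesion molecule, and Lgals8, a galectin, stood at 0.63 and -0.14 in LILRB4 over WT (edgeR adjusted p = 0.0818 and 0.678). Of 10 tested genes of APOE receptors and lipid transport, 1 passed in LILRB4 against WT, where 2.25% of all genes passed, the cholesterol exporter Abca1 (1.15, edgeR adjusted p = 0.0436), and 0 with recovered counts. Its levels were 17.2 ± 3.57 FPKM in SCG2 knockout, 25.6 ± 5.43 FPKM in LILRB4 and 11.3 ± 3.99 FPKM in WT libraries, and the sorting receptor Sorl1 stood at 0.90 (edgeR adjusted p = 0.0601). Of 8 tested fibronectin receptor genes 0 passed, with the integrin genes Itga4 at 1.12 and Itgb3 at 0.92 over WT (edgeR adjusted p = 0.160 and 0.362). The other 8 granin and prohormone processing genes are outside the count table, and their means did not exceed 0.35 FPKM in any group. In both SCG2 knockout comparisons 0 genes of these lists passed.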

How the data were processed

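For 9 libraries the authors deposited unnormalised counts of 9877 genes and, for 54532 genes, FPKM with the gene lengths used. The submitters' processing notes name HISAT2 2.0.5 and featureCounts 1.5.0-p3, and libraries kept strand, per the labels' protocols. The sources used here do not give build, annotation or strand setting; start and end of all 8 genes matched the GRCm38 annotation. FPKM times length and 1 constant per library gave whole counts for 100% of values within 0.01 (recovered counts). These differed from deposited counts for 56 of 88893 values, in 47 genes, none among the 7 tested. Recovered totals of 15004944 to 28070495 put the limit of a count of 0 at 0.107 to 0.200 CPM (3 counts, counting error only).

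Deposited counts were fitted with edgeR 4.0.16 in R 4.3.3 (filterByExpr minimum count 10, TMM, robust quasi-likelihood, all 9 libraries, 6 residual degrees of freedom), adjusted by Benjamini-Hochberg over all genes with a threshold of 0.05, and fold changes carry SEs. The script was tested on simulated data. Alternatives were DESeq2 1.42.0, limma 3.58.1 on log2(FPKM + 1) and log2(FPKM + 0.1), other scalings and filters, recovered counts, other sets of libraries, a replicate block and each library left out. The sum of both receptor genes and the 2 further length measures were added after the data were seen. Ratios were tested by exact permutation of libraries. The 8 genes and all lists were chosen with earlier results of these data known. The text names all 8 genes, of each list the genes that passed (at most 4) and the 2 with the largest absolute log2 fold change in LILRB4 against WT, and the 5 genes most like each by r.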

Additional observations from a re-analysis of the deposited data

How the results depend on the processing

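For the 7 tested genes, 550 values under alternatives kept direction and side of the threshold, 8 newly passed and 10 changed direction, all 10 of log2 fold changes near 0. The 550 include alternatives that could not differ from the main fit. Dropping the filter on low counts left the same 9877 genes. Fitting only the groups compared kept all 9 libraries for both LILRB4+/+ genotypes against WT. Of the 7 genes 2 passed with DESeq2 and 0 to 1 with single libraries left out, both in LILRB4 against WT and for both LILRB4+/+ genotypes against WT, and 1 passed with DESeq2 in SCG2 knockout against LILRB4. Log2 fold changes over the left-out libraries ran from -0.46 to 0.10 for Ptpn6 and -0.17 to 0.27 for Apoe in LILRB4 over WT, and from -0.14 to 0.11 for Fn1 in SCG2 knockout over WT. Apoe turned to -0.028 with upper quartile scaling and -0.068 with library totals. The log2 ratio of Lilrb4a to Lilr4b ran from -0.23 to 0.047 in LILRB4 against WT, -0.12 to 0.079 in SCG2 knockout against LILRB4, -0.24 to 0.016 in SCG2 knockout against WT and -0.23 to 0.022 for both genotypes against WT. For both LILRB4+/+ genotypes against WT the log2 ratio of Ptpn6 to Ptpn11 ran from -0.80 to -0.43, passing without LILRB4 replicate 2, and that of Inpp5d to Ptpn6 passed at 0.64 as a difference of medians and ran from 0.36 to 0.65. Passing here means an unadjusted exact permutation p under 0.05 (0.0179 and 0.0357), not adjusted over the 12 ratio tests. The cause of these shifts was not tested.

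Over all genes in LILRB4 against WT, 222 passed in the main test, 924 with DESeq2, 458 with library totals, 137 with recovered counts of 15743 genes, 102 and 98 with limma at pseudocounts 1 and 0.1, 0 with limma and no filter, 72 with only both groups in the fit, and 0 to 689 with single libraries left out (0 without WT replicate 2 or 3, 689 without LILRB4 replicate 2). In SCG2 knockout against LILRB4 175 passed with DESeq2 and 0 to 1 with libraries left out, and in SCG2 knockout against WT 92 with DESeq2. For both LILRB4+/+ genotypes against WT 4 passed in the main test, 724 with DESeq2, 17 among genes with a mean count of 500 or more, 2 with recovered counts, 0 with upper quartile scaling, library totals or limma at a pseudocount of 1 with or without a filter, and 0 to 753 with libraries left out.

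Replicate numbers are shared by the groups. Correlations of deviations from the group means ran from -0.54 to 0.66 between same-numbered libraries and from -0.71 to 0.52 between the others. Deviations from a mean of 3 libraries sum to 0, which forces mixed signs, so these correlations cannot settle whether the libraries pair. With the replicate block 1 gene passed in LILRB4 against WT and 0 in each other comparison, none of them among the 7. Groups of 3 were not screened for single outlying values. Depth limits the statement on Scg2.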
